A study of Mus musculus with 4 samples.

Results

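The unfolded protein response and the folding machinery of the endoplasmic reticulum (ER) were followed through 31 genes in mouse heart. They were the sensors, transcription factors, chaperones, disulfide isomerases, degradation genes and ATF4 targets of ER stress, taken as every probe whose gene name in the scanner files was that of a listed gene. The 31 genes were among 37074 gene names on the array and had 60 probes, of which 52 were present (well above background and free of flags) on at least 1 array. Cy3-labelled RNA from hearts of female *C57BL/6J* mice was measured on Agilent whole-genome arrays, with 1 array for each of 4 conditions on 1 slide. In the NAC + CY condition, *N*-acetyl cysteine (NAC, an antioxidant and acrolein scavenger) at 200 mg/kg preceded cyclophosphamide (CY, an alkylating prodrug) at 400 mg/kg by 2 h. In the CY condition, mice received CY alone at 400 mg/kg, and in the acrolein condition they received acrolein, a by-product of CY metabolism, at 5 mg/kg. In the NS condition, the control, they received normal saline. All injections were intraperitoneal on 2 days, and hearts were taken 3 h after the last dose. The mice were 6 weeks old per the labels and 5 weeks old per the methods. The RNA came from pieces of heart tissue and not from isolated cardiomyocytes, and how many animals stood behind each array was not given in the sources used here. In the design text 3 independent studies are mentioned, and whether RNA of all 3 was pooled for an array was not given either.

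The ER folds secreted and membrane proteins with the help of chaperones and of enzymes that form disulfide bonds. When unfolded proteins accumulate, the sensors Ern1 (IRE1), Eif2ak3 (PERK) and Atf6 are activated. Ern1 splices the mRNA of the transcription factor Xbp1, Eif2ak3 slows translation in a way that favours the transcription factor Atf4, and cleaved Atf6 enters the nucleus, after which chaperone, degradation and amino acid genes are transcribed. In heart muscle, the ER is largely specialised as the sarcoplasmic reticulum, which stores calcium for contraction.

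Signals were quantile-normalised over the 4 arrays and are in arbitrary fluorescence units. Each gene is given by its brightest present probe. A gene was called higher when its intensity-based Z-score was at least 2 and its ratio at least 1.5, and lower when its Z-score was at most -2 and its ratio at most 0.66, which are criteria from the study's methods. The Z-score is the distance of a log2 ratio from the mean of the 200 probes nearest in signal, in units of their SD. With 1 array per condition, no difference could be checked against replicates, and no p-value was computed. The error given after a log2 ratio is that of the 2 spots by the error model of the scanner software, and it covers neither the animal nor the RNA preparation. Across the 31 genes it ran from 0.20 to 0.47 in CY over NS. Repeated spots of 1 probe differed by an SD of 0.057 to 0.077 on the log2 scale.

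All 6 cardiomyocyte markers were well above background on all 4 arrays, with summed signals of 858106 on NAC + CY, 820014 on CY, 1007740 on acrolein and 1014300 on NS. Of the 6, 2 were called lower after CY with and without NAC, Actc1 and Ryr2. Their log2 ratios were -1.08 and -1.24 in NAC + CY over NS and -1.30 and -1.39 in CY over NS. Between 47.1% and 50% of the probes of an array were well above background, and no spot was saturated. Markers of other tissues also moved between the arrays. The 5 hepatocyte markers summed to 8398 on NAC + CY, 182 on CY, 45.0 on acrolein and 75.8 on NS, and all 5 were well above background on NAC + CY, against 2 of 5 on each of the others. The 5 atrial markers summed to 486534 on NAC + CY, 793785 on CY, 378992 on acrolein and 303693 on NS. The 7 mesothelial markers summed to 1961, 6160, 1028 and 2077 in the same order of arrays, and the 4 adipocyte markers to 14174, 5323, 884 and 3936. The 4 platelet markers were called higher on CY, with sums of 2017 on NAC + CY, 6887 on CY, 2751 on acrolein and 2809 on NS. The 4 fibroblast markers summed to 58777, 77850, 51392 and 49709 on these arrays, and the 4 macrophage markers to 3365, 5268, 5278 and 4866. Dcn was the brightest fibroblast marker, with log2 ratios of 0.36 in NAC + CY over NS and 0.74 in CY over NS. The other 3 fibroblast markers lay below 0 in both comparisons. Of these, Col1a1 and Lum were called lower in NAC + CY over NS, at -1.18 and -0.98. The log2 ratios of the control genes to NS were -0.33 in NAC + CY, 0.02 in CY and 0.00 in acrolein for Actb, and 0.06, 0.05 and -0.03 for Gapdh. The part of these markers in the results that follow was not tested, and since each treatment was measured on 1 array, treatment and tissue piece cannot be told apart. In whole tissue, fewer cells of a type and less RNA per cell also cannot be told apart.

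Against NS, the chaperone and disulfide isomerase genes held 3 of the 4 falls after CY, with and without NAC, and the ATF4 targets held the highest ratios of those conditions. In CY over NS, 4 of the 31 genes (12.9%) were called lower, namely Derl3, Sdf2l1, Hsp90b1 and Pdia6, beside 2.82% of all 19721 genes tested. No member was called higher, beside 3.38% of all genes. In NAC + CY over NS, Derl3, Sdf2l1, Hsp90b1 and Pdia6 were called lower (12.9%), beside 2.59% of 19808 genes, and Ppp1r15a alone was called higher, beside 2.68%. In acrolein over NS, Derl3 was called higher and no member lower, beside 1.08% and 1.29% of 19700 genes. These 3 comparisons share the NS array.

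The median log2 ratio of the 31 genes was -0.06 in NAC + CY over NS (all genes -0.01), 0.00 in CY over NS (all genes -0.02) and 0.13 in acrolein over NS (all genes 0.01). Around these medians the members spread in both directions after CY, with 16 above 0 and 15 below. On the acrolein array, 27 of the 31 lay above 0, 3 below and 1, P4hb, at 0, beside 10217 of all 19700 genes tested above 0. The median of 0.13 there was smaller than the spot error, which ran from 0.20 to 0.32 across the 31 genes. Of 16 members with more than 1 present probe in that comparison, 9 had the same sign with every probe. The signal was highest on the acrolein array for 14 members, on CY for 11, on NAC + CY for 5 and on NS for 1, Ddit3 by its brightest probe. It was lowest on NS for 11 members, on NAC + CY for 9, on CY for 8 and on acrolein for 3.

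**Figure D1:**
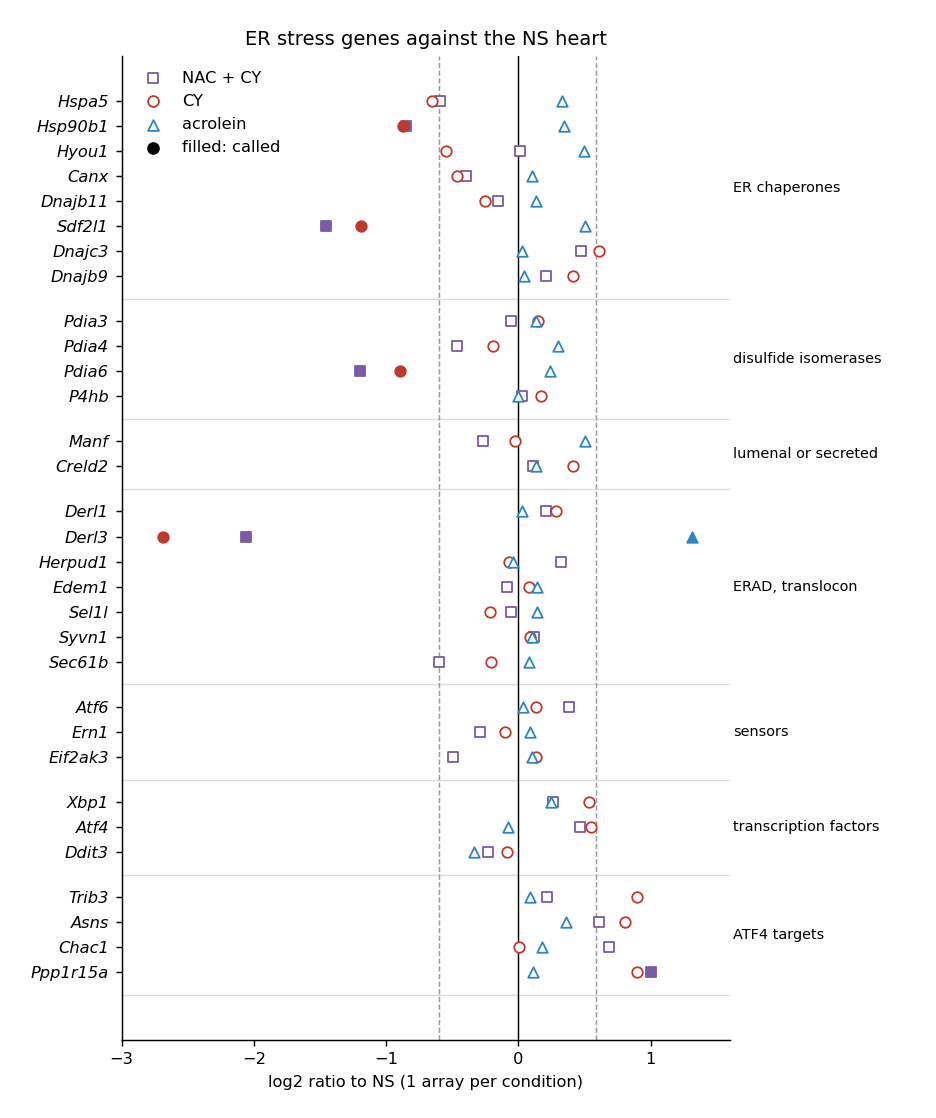
Log2 ratio to NS (horizontal axis) of the 31 ER stress genes, grouped by role, for NAC + CY (squares), CY (circles) and acrolein (triangles), with 1 array per condition. Filled symbols were called, and dashed lines mark ratios of 0.66 and 1.5. Derl3, Sdf2l1, Pdia6 and Hsp90b1 lie to the left for NAC + CY and CY, and Derl3 is the only filled triangle.

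Of the 8 ER chaperones, 2 fell after CY and after NAC + CY. The median of the 8 was -0.27 in NAC + CY over NS, -0.51 in CY over NS and 0.23 in acrolein over NS. The median for CY rests in part on Hyou1 at -0.55 by its brightest probe, and the other probe tested had 0.61. The sum of the 4 endothelial markers, all well above background on all arrays, was also low on both CY arrays. It was 3106 on NAC + CY, 2888 on CY, 5391 on acrolein and 5856 on NS. In each CY comparison with NS, 3 of the 4 lay below 0 and Kdr was called lower, at -1.50 with NAC and -1.92 without. Pecam1 lay above 0, at 0.23 and 0.59. The part of these markers in the chaperone values was not tested. Hsp90b1 (GRP94, the HSP90 of the ER lumen) had a signal of 11729 on NAC + CY, 11555 on CY, 26894 on acrolein and 21200 on NS. The NAC + CY and CY arrays were thus close together and low, and the acrolein array was the highest. The log2 ratio was -0.85 ± 0.20 (Z-score -2.10) in NAC + CY over NS, -0.88 ± 0.20 (Z-score -2.01) in CY over NS and 0.34 ± 0.20 (Z-score 2.58) in acrolein over NS. Both Z-scores of the falls were just past the threshold, and both calls were lost after normexp background correction, the one for CY also with a window of 400 probes. Its probe lies at chr10:86153693-86153752 (mm9).

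Sdf2l1, a lumenal partner of the chaperone complex, had a signal of 168 on NAC + CY, 202 on CY, 653 on acrolein and 461 on NS. The order of the arrays was that of Hsp90b1 except that NAC + CY was the lowest. Its log2 ratio was -1.46 ± 0.21 in NAC + CY over NS (Z-score -2.04) and -1.19 ± 0.21 in CY over NS (Z-score -2.12). In acrolein over NS it was 0.50 ± 0.20 with a Z-score of 2.88, and the ratio of 1.41 stayed short of 1.5. The call in CY over NS was lost when the arrays were scaled to their 75th percentile in place of quantile normalisation. The probe lies at chr16:17130426-17130485 (mm9).

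Hspa5 (BiP, the main HSP70 of the ER and a repressor of the sensors) had a signal of 17436 on NAC + CY, 16664 on CY, 33079 on acrolein and 26282 on NS. It was low on both CY arrays and high on acrolein, yet no comparison called it. The log2 ratio was -0.59 ± 0.20 in NAC + CY over NS (Z-score -1.26), -0.66 ± 0.20 in CY over NS (Z-score -1.10) and 0.33 ± 0.20 in acrolein over NS (Z-score 3.20). For CY the ratio of 0.63 was past the ratio criterion and the Z-score was not. All 3 probes of the gene gave the same signs, from -0.74 to -0.59 in NAC + CY over NS, from -0.66 to -0.59 in CY over NS and from 0.20 to 0.37 in acrolein over NS. Its brightest probe lies at chr2:34631913-34631972 (mm9).

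The other 5 chaperones passed no call. Canx (calnexin, which holds glycoproteins in the ER) had log2 ratios of -0.39 in NAC + CY over NS and -0.47 in CY over NS, and Dnajb11, a co-chaperone of Hspa5, had -0.16 and -0.26. The co-chaperones Dnajc3 and Dnajb9 lay on the other side of 0, at 0.47 and 0.21 in NAC + CY over NS and at 0.61 and 0.41 in CY over NS. The ratio of Dnajc3 in CY over NS, 1.52, was past the ratio criterion with a Z-score of 0.97. Hyou1, an HSP110-type chaperone, was dim on every array, with signals of 24.1 on NAC + CY, 16.4 on CY, 33.7 on acrolein and 23.9 on NS. Its 2 probes tested in CY over NS pointed in opposite directions, at -0.55 and 0.61, so no direction is given for it.

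Among the 4 disulfide isomerases, Pdia6 fell and the others passed no call. Pdia6, which also limits the activity of the sensors, had a signal of 5710 on NAC + CY, 7028 on CY, 15490 on acrolein and 13108 on NS. The NAC + CY array was the lowest and the acrolein array the highest. The log2 ratio was -1.20 ± 0.20 in NAC + CY over NS (Z-score -3.20), -0.90 ± 0.20 in CY over NS (Z-score -2.37) and 0.24 ± 0.20 in acrolein over NS (Z-score 2.09). It was the member that stayed called lower in NAC + CY over NS at a Z-score criterion of -3. Pdia4 had log2 ratios of -0.46 in NAC + CY over NS and -0.20 in CY over NS, Pdia3 had -0.06 and 0.14, and P4hb had 0.03 and 0.17. The probe of Pdia6 lies at chr12:17291070-17291129 (mm9).

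Derl3, of the derlin family that moves misfolded proteins out of the ER for degradation, had the largest differences of the 31 genes. Its signal was 14.9 on NAC + CY, 9.66 on CY, 155 on acrolein and 62.3 on NS. The CY signal was not well above background, and the NAC + CY signal was close to that level, whereas acrolein stood above NS. Because the CY value is only a bound, Derl3 was at least 4.86-fold lower on CY than on NS, computed against the lowest signal on the CY array among probes well above background. This bound holds for the background subtraction of the scanner software. With normexp background correction (offset 50) the log2 ratios were closer to 0, at -0.69 in NAC + CY over NS, -0.80 in CY over NS and 0.80 in acrolein over NS, and the 3 calls remained. Without normexp, the log2 ratio was -2.06 ± 0.34 in NAC + CY over NS (Z-score -2.84), -2.69 ± 0.47 in CY over NS as measured (Z-score -3.19) and 1.31 ± 0.22 in acrolein over NS (Z-score 3.66). The ratio of 2.48 on acrolein made it the only member called there. Its single present probe lies at chr10:75358606-75358665 (mm9).

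Derl3 is known to be high in secretory cells such as plasma cells, and the plasma and B cell markers were read beside it. The 6 markers summed to 143 on NAC + CY, 211 on CY, 211 on acrolein and 226 on NS. Jchain and Cd79a, defining markers of these cells, were not well above background on any array. The log2 signal of Mzb1, an ER protein of plasma cells, was 5.72 on NAC + CY, 6.24 on CY, 5.21 on acrolein and 5.63 on NS. The marker sum was lowest on NAC + CY and highest on NS, and the part of these cells in the Derl3 values was not tested.

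**Figure D2:**
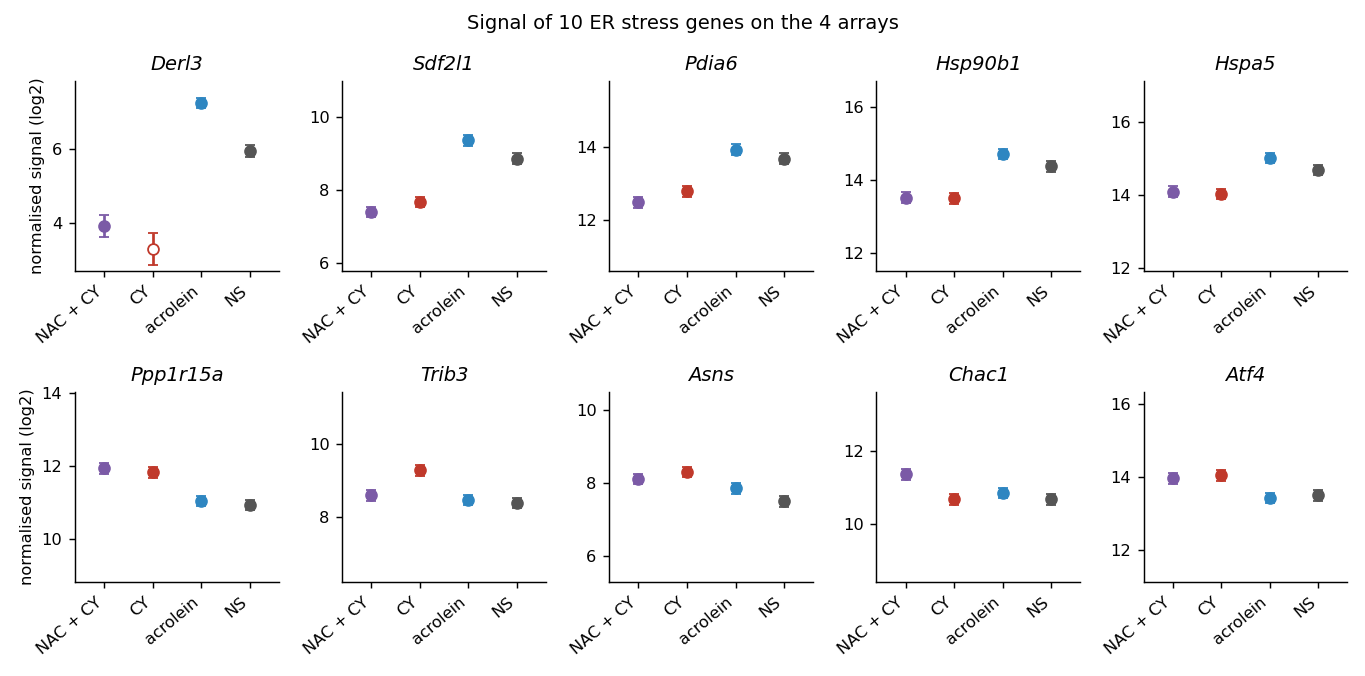
Normalised log2 signal (vertical axis, each panel spanning the same 5.2 log2 units) of 10 ER stress genes on the NAC + CY, CY, acrolein and NS arrays. Bars are the spot error of the scanner software, and the open symbol marks Derl3 on CY, which was not well above background. The 5 genes of the upper row are lower on NAC + CY and CY than on NS, and Ppp1r15a, Asns and Atf4 are higher.

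The other ERAD and translocation genes, which recognise, ubiquitinate or move proteins across the ER membrane, showed no call. Herpud1 had log2 ratios of 0.32 in NAC + CY over NS and -0.07 in CY over NS, Sel1l had -0.06 and -0.22, and its partner, the ubiquitin ligase Syvn1, had 0.11 and 0.08. Edem1, a mannosidase-like lectin that targets glycoproteins for degradation, had -0.09 and 0.08 by its brightest probe and 0.45 and 0.86 by the other. Derl1 had 0.21 and 0.28. Sec61b, a subunit of the translocon, had -0.60 in NAC + CY over NS, with a ratio of 0.661 that just missed 0.66, and -0.21 in CY over NS. In acrolein over NS these 6 genes lay between -0.04 and 0.14.

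Manf and Creld2, lumenal proteins that are secreted under stress, were not called. Manf had a signal of 677 on NAC + CY, 800 on CY, 1155 on acrolein and 815 on NS. The acrolein array stood apart from the others, with a log2 ratio to NS of 0.50 ± 0.20 and a Z-score of 3.38, but the ratio of 1.42 stayed short of 1.5. Creld2 had log2 ratios of 0.11 in NAC + CY over NS, 0.41 in CY over NS and 0.14 in acrolein over NS.

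On the acrolein array the Z-score and the ratio parted. The median SD of the log2 ratios in a window was 0.21 in acrolein over NS, against 0.54 in NAC + CY over NS and 0.58 in CY over NS, so that small ratios reached high Z-scores. By the Z-score alone, a criterion chosen after the values were seen, 7 members were higher in acrolein over NS, beside 2.22% of all genes tested. They were Derl3, Hspa5, Hsp90b1, Sdf2l1, Pdia6, Manf and Xbp1, and the ratios of all but Derl3 lay between 1.18 and 1.42.

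The promoters of the members were searched for the ER stress response element, the sequence through which Atf6 and Xbp1 are known to act. Stretches with a match are shown for Hsp90b1, Derl3 and Pdia6, which were called lower after CY, and for Hspa5, which was not called. A promoter here is 250 bases before to 50 bases after the start of the gene, from RefSeq on GRCm38.p6, and 27 of the 31 members had one. The element (ERSE) was searched as CCAAT followed after 9 bases by CCACG, on both strands. It was found in 8 of the 27 promoters (29.6%), those of Hspa5, Hsp90b1, Derl3, Pdia6, Canx, Dnajc3, Creld2 and Syvn1, and in 39 of all 32851 promoters (0.119%). In the stretches below, printed along the gene's own strand with the match in capitals, the match begins 65 bases before the start in Hspa5 and 156 bases before it in Derl3, where it runs in reverse. Hsp90b1 holds 2 matches, one in each orientation.
Hspa5, chr2:34772005-34772063, plus strand: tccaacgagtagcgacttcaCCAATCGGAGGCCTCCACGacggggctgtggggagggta
Hsp90b1, chr10:86705618-86705676, minus strand: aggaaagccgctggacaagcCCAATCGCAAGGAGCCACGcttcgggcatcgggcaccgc
Hsp90b1, chr10:86705513-86705571, minus strand: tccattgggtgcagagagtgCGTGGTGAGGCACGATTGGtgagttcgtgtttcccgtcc
Derl3, chr10:75893222-75893280, plus strand: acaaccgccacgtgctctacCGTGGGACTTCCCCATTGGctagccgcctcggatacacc
Pdia6, chr12:17266471-17266529, plus strand: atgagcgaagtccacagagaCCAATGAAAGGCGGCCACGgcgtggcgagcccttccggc

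Of the 4 genes called lower after CY, 3 had such a match and Sdf2l1 had none in this window. The 8 genes with a match had a median log2 ratio of -0.49 in NAC + CY over NS, -0.56 in CY over NS and 0.19 in acrolein over NS, and all 8 lay above 0 on acrolein. The 19 genes without one had -0.06, 0.08 and 0.11. Within the 8, Dnajc3, Creld2 and Syvn1 lay above 0 in NAC + CY over NS and in CY over NS, so the match did not sort the members by direction. ERSE-II (ATTGG, 1 base, CCACG), whose first part is the reverse complement of the CCAAT of ERSE, was found in Herpud1 and Dnajb11 and in 0.0365% of all promoters. The element UPRE (TGACGTGG) was found in no member and in 0.676% of all promoters. A match is a description of the letters only.

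The 3 sensors passed no call against NS. Atf6 had log2 ratios of 0.38 in NAC + CY over NS, 0.14 in CY over NS and 0.03 in acrolein over NS. Ern1 had -0.29, -0.10 and 0.09 in the same order. Eif2ak3 had a signal of 105 on NAC + CY, 162 on CY, 158 on acrolein and 148 on NS, by its brightest probe. Its 2 probes had opposite signs in NAC + CY over NS, at -0.49 and 0.42, so no direction is given for it there. These are transcript levels, and the sensors are known to be switched on by phosphorylation or cleavage, which arrays do not measure.

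Of the transcription factors, Atf4 and Xbp1 had ratios above 1 after CY, and the probes of Ddit3 disagreed in sign. Atf4 had a signal of 15982 on NAC + CY, 16887 on CY, 10961 on acrolein and 11571 on NS. The arrays fell into 2 close pairs, but the log2 ratios of 0.47 ± 0.20 in NAC + CY over NS and 0.55 ± 0.20 in CY over NS were not called. Xbp1 had 6800 on NAC + CY, 8198 on CY, 6727 on acrolein and 5666 on NS, and all 3 treated arrays lay above NS with each of its 3 probes. Its probes gave 0.26 to 0.50 in NAC + CY over NS, 0.53 to 0.76 in CY over NS and 0.25 to 0.49 in acrolein over NS. These probes do not separate the spliced from the unspliced form, which differ by a short stretch. Ddit3 (CHOP, a factor linked to cell death under lasting ER stress) had 253 on NAC + CY, 280 on CY, 236 on acrolein and 297 on NS by its brightest probe. The second probe of Ddit3 had the opposite sign in all 3 comparisons with NS, at 0.21, 0.03 and 0.37 for NAC + CY, CY and acrolein, so no direction is given for it.

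The 4 ATF4 targets had the highest median of the roles after CY, at 0.65 in NAC + CY over NS and 0.85 in CY over NS, and lay at 0.14 in acrolein over NS. Only Ppp1r15a was called. Ppp1r15a (GADD34, which directs a phosphatase to eIF2α and restores translation) had a signal of 3921 on NAC + CY, 3653 on CY, 2114 on acrolein and 1961 on NS. Both CY arrays lay well above acrolein and NS, which were close together. The log2 ratio was 1.0 ± 0.20 in NAC + CY over NS (Z-score 2.73), 0.90 ± 0.20 in CY over NS (Z-score 1.93) and 0.11 ± 0.20 in acrolein over NS. The Z-score for CY stayed just short of 2, and with a window of 100 probes the gene was called there too. Its probe lies at chr7:52778320-52778379 (mm9).

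Asns (asparagine synthetase) had a signal of 276 on NAC + CY, 316 on CY, 232 on acrolein and 181 on NS. All 3 treated arrays lay above NS, with log2 ratios of 0.61 ± 0.21 in NAC + CY over NS, 0.80 ± 0.21 in CY over NS and 0.36 ± 0.21 in acrolein over NS, and no Z-score reached 2. By the ratio alone, 3 members were higher in NAC + CY over NS (Asns, Chac1 and Ppp1r15a) and 4 lower, beside 9.61% and 9.67% of all genes. For CY, 4 were higher by the ratio alone (Dnajc3, Trib3, Asns and Ppp1r15a) and 5 lower, beside 11.7% and 10.7%. In acrolein over NS the numbers were 1 and 0, beside 3.97% and 2.87%. The share of higher members by the ratio alone was thus near that of all genes after CY.

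Trib3 and Chac1 were the only members called between NAC + CY and CY. In NAC + CY over CY, 1 of the 31 genes (3.23%) was called higher, Chac1, and 1 (3.23%) lower, Trib3. Of all 20083 genes tested, 1.54% were called higher and 2.82% lower, so the 2 calls are near the shares of all genes. The median of the 31 genes was -0.14 (all genes 0.02). By the ratio alone, Derl3 and Chac1 were higher and Trib3 and, by its brightest probe, Eif2ak3 lower, beside 5.82% and 7.86%. Trib3 (a pseudokinase that restrains ATF4 and AKT) had a signal of 387 on NAC + CY, 622 on CY, 355 on acrolein and 334 on NS. CY alone stood apart, with a log2 ratio of 0.90 ± 0.20 to NS (Z-score 1.72), and NAC + CY lay at -0.68 ± 0.20 against CY (Z-score -2.66).

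Chac1 (which degrades glutathione) had the opposite arrangement, with a signal of 2641 on NAC + CY, 1645 on CY, 1857 on acrolein and 1643 on NS. The CY and NS arrays were nearly equal and NAC + CY stood apart, at 0.68 ± 0.20 against CY (Z-score 2.37) and 0.68 ± 0.20 against NS (Z-score 1.73). Both calls between NAC + CY and CY were lost after normexp background correction. The 4 genes that fell after CY gave no call here. Hsp90b1 differed by 0.02, Pdia6 by -0.30 and Sdf2l1 by -0.27. Derl3 had 0.63 ± 0.53 as measured, with a CY signal that was only a bound. Set against the lowest signal well above background on CY, its NAC + CY signal was 1.16-fold higher. That difference is smaller than the 20.7% spot error of the NAC + CY signal. The hepatocyte and adipocyte markers, which were high on the NAC + CY array as given above, were all called higher in this comparison. Called lower were all 4 platelet markers, 6 of 7 mesothelial markers and 4 of 5 atrial markers. The same held for 2 of 4 fibroblast and 2 of 4 macrophage markers. The part of these markers in the comparison was not tested.

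The core of the CARE element (TGATGNAA, both strands), through which Atf4 is known to act with C/EBP partners, was found in the promoters of Chac1, Trib3, Asns and Herpud1, 4 of the 27 members (14.8%), and in 3.97% of all promoters. Those of Chac1 and Asns are shown because both genes had ratios to NS above 1.5 after NAC + CY, with the core in capitals along the gene's strand.
Chac1, chr2:119351029-119351076, plus strand: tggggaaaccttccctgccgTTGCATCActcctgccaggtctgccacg
Asns, chr6:7693205-7693252, minus strand: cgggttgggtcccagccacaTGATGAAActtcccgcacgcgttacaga
The 4 genes with the core had a median log2 ratio of 0.47 in NAC + CY over NS, 0.40 in CY over NS and 0.13 in acrolein over NS, and the 23 without it -0.16, -0.09 and 0.13. The promoter of Ppp1r15a, the member called higher in NAC + CY over NS, had no match in this window.

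Members with more than 1 present probe allow a check within an array. In CY over NS, the probes of 12 of 18 such genes had the same sign, with a median range of 0.18 and a largest range of 1.15 in Hyou1. In NAC + CY over NS 12 of 18 agreed in sign, and in acrolein over NS 9 of 16. Hspa5, Canx, Dnajb11, Xbp1, Atf4 and Asns were among those that kept their sign in CY over NS with every probe, whereas Hyou1, Sel1l, Sec61b, Ern1, Ddit3 and Herpud1 did not. The 4 genes called lower had 1 present probe each, so their values have no such check.

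**Figure D3:**
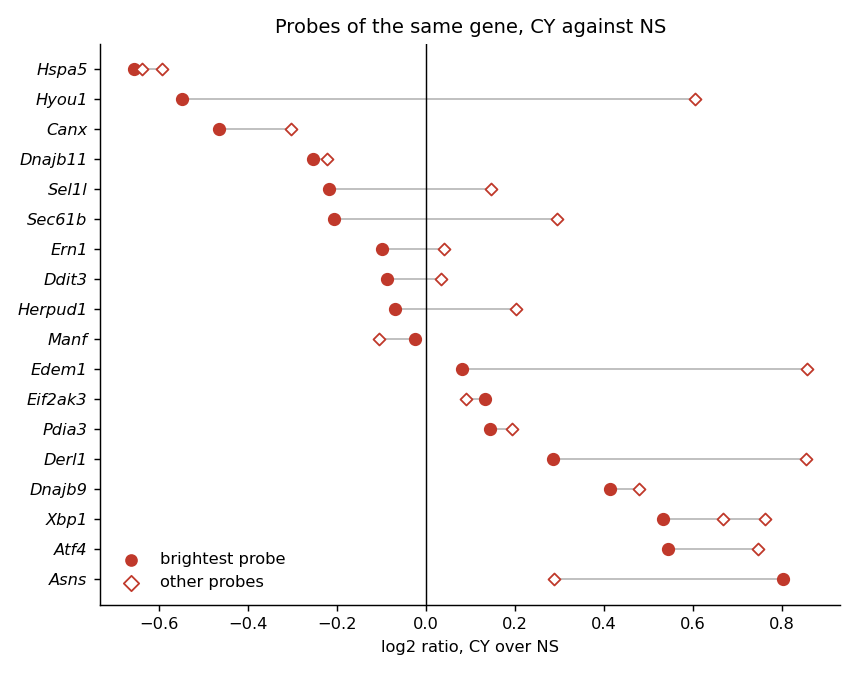
Log2 ratio of CY over NS (horizontal axis) for the 18 ER stress genes with more than 1 present probe. Filled circles are the brightest probe of a gene and open diamonds its other probes, joined by a line. The 3 probes of Hspa5 lie together below 0 and those of Xbp1 above 0, and Hyou1 spans 1.15 log2 units.

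Other genes of the pathway were set beside the members. Of 24 other chaperones and foldases tested, 2 (8.33%) fell in NAC + CY over NS, beside 2.59% of all genes. They were Calr (calreticulin, a lumenal lectin chaperone) at -0.84 and the disulfide isomerase Pdia5 at -1.25. In CY over NS they had -0.69 and -0.73 and were not called. The medians of these 24 genes were -0.05 and 0.04 in the same comparisons, with 11 above 0 and 13 below in NAC + CY over NS and 15 above and 9 below in CY over NS. By the ratio alone, 3 of the 24 were lower in each comparison and 0 higher. The shares of all genes by the ratio alone were 9.67% lower and 9.61% higher in NAC + CY over NS. In CY over NS they were 10.7% lower and 11.7% higher. Of 23 other ERAD genes, none was called against NS, and 19 lay above 0 in NAC + CY over NS and 18 in CY over NS, with medians of 0.24 and 0.16. Of all genes tested, 9682 of 19808 lay above 0 in NAC + CY over NS and 9523 of 19721 in CY over NS. Among 29 translocon, signal peptidase and glycosylation genes, none was called against NS. In NAC + CY over CY, 1 of the 29 (3.45%) was lower, beside 2.82% of all genes. It was Kdelr3, a receptor that returns ER proteins from the Golgi, at -0.72.

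Of 18 other sensors and regulators tested, 1 (5.56%) rose in NAC + CY over NS, beside 2.68% of all genes, and none was called in CY or acrolein over NS. It was Creb3l4, an ER-bound factor of the ATF6 type, at 1.56 (Z-score 2.10). Its log2 signal on NS, 4.39, was near the lowest value well above background there, 4.04. On acrolein it was not well above background. The kinase Map3k5 (ASK1) was higher in NAC + CY over CY at 0.90, as 1 of the 18 (5.56%), beside 1.54% of all genes. Among the other ATF4 and CHOP targets, 3 of 39 (7.69%) rose in NAC + CY over NS, beside 2.68% of all genes. In CY over NS the same genes rose, 3 of 40 (7.5%), beside 3.38%. They were Gdf15, a stress-induced cytokine, the transcription factor Atf3, and Bbc3 (PUMA), an inducer of apoptosis, at 3.24, 2.11 and 1.20 in NAC + CY over NS and at 2.95, 1.81 and 1.39 in CY over NS. None fell, and the medians of the list were 0.17 and 0.19. All 3 are also known to be induced outside ER stress, Bbc3 by p53. In acrolein over NS Gdf15 alone was called, at 0.59 (2.56% of the list, 1.08% of all genes). In NAC + CY over CY the stress factor Nupr1 was lower, at -0.84 (2.5% of the list, 2.82% of all genes).

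**Figure D4:**
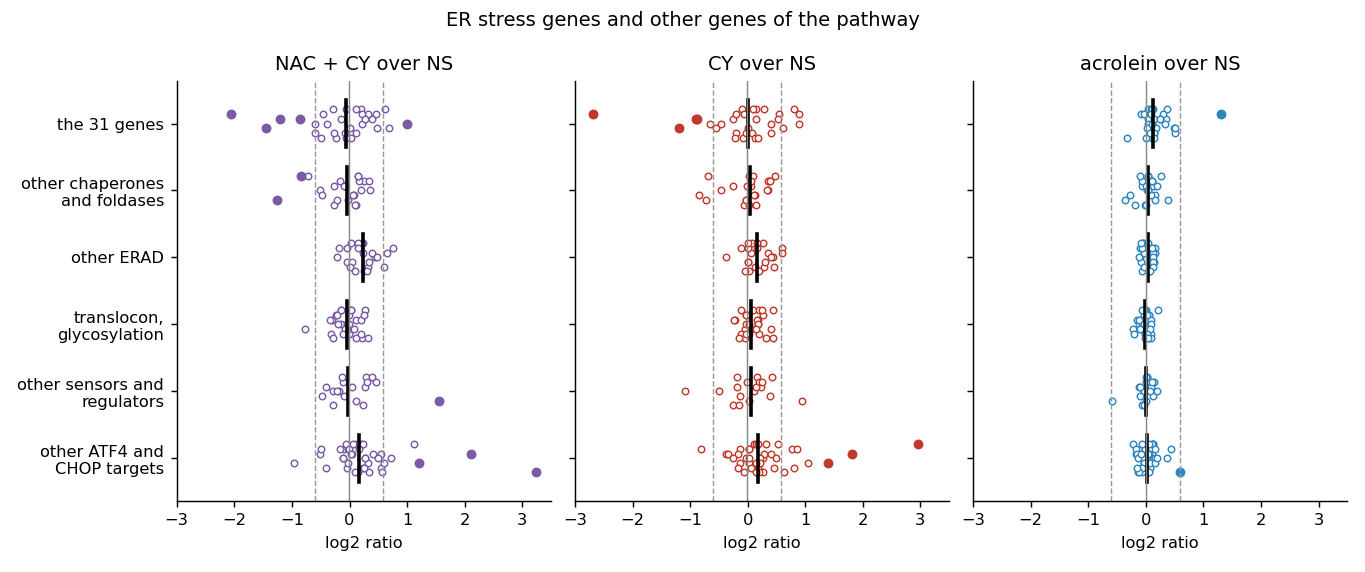
Log2 ratio (horizontal axis) of the 31 ER stress genes and of 5 lists of other genes of the pathway in NAC + CY, CY and acrolein over NS, 1 point per gene. Filled points were called, thick bars are list medians, the grey line is the median of all genes tested and dashed lines mark ratios of 0.66 and 1.5. For NAC + CY and CY, the lowest point is a member (Derl3) and the highest an ATF4 or CHOP target (Gdf15), and all list medians lie within 0.24 of 0.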

How the data were processed

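The authors hybridised Cy3-labelled heart RNA to Agilent 8 x 60 K mouse arrays and extracted spots with Feature Extraction (10.7.1.1 by the headers of the files, 9.5.1.1 by the notes of the submitters). Their deposited intensity columns hold processed signals after background subtraction, with the authors' other columns being flags and errors of each spot. The deposited value table of the series, which correlated at 0.999998 or more with the normalised signals, served as an alternative. No per-sample column was left unmapped (0).

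Signals of 59305 non-control spots (56605 probes) were log2-transformed and quantile-normalised over 4 arrays. A probe was tested when present on at least 1 of the 2 arrays compared, and spots of a probe were averaged. Precision is limited by the number of arrays. The members and gene lists were chosen with earlier results of these data known. The genes named are all members, the called genes with the largest ratios of each list (up to 3), and the control genes Actb and Gapdh. Some cell type markers that were not called are named too. Calling was tested on simulated data. Promoters and accessions came from RefSeq tables of GRCm38.p6, and the accession of the probe matched the symbol for 30 of 31 members. Positions of probes were read from the array files (mm9). Proteins were not analysed here. Python 3.11.15, numpy 2.4.6, pandas 2.3.3, matplotlib 3.10.9, R 4.3.3 and limma 3.58.1 (normexp, offset 50) were used.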

Additional observations from a re-analysis of the deposited data

How the results depend on the processing

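No paired analysis was possible because each condition had 1 array. Alternatives covered scaling, background correction, the value table, the filter on dim probes, the window, the criteria and the choice of probe. The median log2 ratio of the members moved by less than 0.11 in all of them. In CY over NS, the members called higher numbered 1 with a window of 100 probes and 4 by the ratio alone, beside 0, and those called lower numbered 2 at a ratio of 2 and 1 at a Z-score of 3, beside 4. In NAC + CY over NS, the members called higher numbered 0 at a ratio of 2, 3 by the ratio alone and 0 at a Z-score of 3, beside 1, and those called lower 1 at a Z-score of 3, beside 4. In acrolein over NS, 7 were higher by the Z-score alone, a criterion chosen after seeing the data, beside 1. In NAC + CY over CY, 0 were higher and 0 lower with normexp, at a ratio of 2 and at a Z-score of 3, and 2 and 2 by the ratio alone, beside 1 and 1. Single members were also compared under the alternatives other than the changed criteria, which gave 990 values. Of these, 42 moved by more than 0.11 on the log2 scale, 26 of them with the median over probes and 15 with normexp. Among the 990, 6 lost a call and 1 gained one. Calls lost or gained under changed Z-score or ratio criteria come on top of these. The largest shift was that of Derl3 in CY over NS, at -0.80 with normexp beside -2.69. A change of sign occurred in 21 values, all of members not called in that comparison, and in 0 of the 95 values of called members. The cause was not tested. Among the members, signal over background limits Derl3 and Hyou1.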
